A study of Mus musculus with 12 samples.

Results

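Glucose enters a cell through transporters of the Slc2a family and is trapped by hexokinases. Glycolysis then splits it into pyruvate, which is either reduced to lactate or carried into mitochondria, turned into acetyl-CoA by the pyruvate dehydrogenase complex and burned in the tricarboxylic acid (TCA) cycle, while the pentose phosphate pathway branches off at glucose 6-phosphate to make NADPH and ribose. Macrophages and microglia are known to raise glycolysis when they are activated, and activated macrophages can draw TCA carbon into itaconate through the enzyme Acod1. The genes described here are 52 enzymes, regulators and transporters of these routes, picked by symbol out of the 53801 genes of the count table, with succinate dehydrogenase left out. There are 22 genes of glucose uptake, glycolysis and lactate formation, 7 of the pentose phosphate pathway, 7 of pyruvate entry, 15 of the TCA cycle and its cytosolic isoenzymes, and Acod1 by itself, and all 52 had enough counts to be tested.

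The libraries came from P2RY12-positive cells sorted with magnetic beads from single brain hemispheres of male or female mice 72 h after transient occlusion of the left middle cerebral artery (MCAO) for 60 min. There were 3 libraries each of cKO IL, cKO CL, WT IL and WT CL, where IL is the ipsilateral (stroke) and CL the contralateral hemisphere. cKO mice carried Cx3cr1-CreER+/- with a floxed target gene on both alleles, and WT mice carried Cx3cr1-CreER+/- alone. Both genotypes received tamoxifen (75 mg/kg per day for 5 days, begun between postnatal days 30 and 40), followed by a wait of 30 days, so CreER and tamoxifen are common to all groups, and every brain had a stroke, so no group comes from an unoperated brain. The Cx3cr1 promoter is also active in myeloid cells that enter the brain from the blood.

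CPM here are counts per library size after TMM scaling (the usual CPM unit), and libraries are named by their group and a letter, D, E and F for cKO and A, B and C for WT, each letter standing for a number that the IL and CL columns share. No source used here says that this number is an animal, and p-values measure the spread between these libraries. The main fit did not use the number, so any pairing of hemispheres was left out of the main calls. Totals ran from 2091512 counts in WT CL C to 47256174 in cKO IL E, and the groups differed in depth, with medians of 44907863 (cKO IL), 16937855 (cKO CL), 23087202 (WT IL) and 5155202 (WT CL). Genes of odorant, vomeronasal and trace amine receptors, which microglia are not known to use, took 0.0384 to 0.058% of the counts in cKO IL against 0.269 to 0.901% in cKO CL, and 0.0228 to 0.199% in WT IL against 0.204 to 1.06% in WT CL. The microglial genes P2ry12 and Cx3cr1 were present in every library, at 84.9 CPM or more and 336 CPM or more. The summed level of 9 genes of infiltrating monocytes was 7280 to 18316 CPM in cKO IL against 284 to 671 CPM in cKO CL, and 601 to 7812 CPM in WT IL against 182 to 6094 CPM in WT CL. Fn1 made up most of these sums in the IL libraries, and Ccr2, the chemokine receptor that marks inflammatory monocytes, showed the same split in cKO, at 136 to 726 CPM in IL against 8.23 to 31.2 CPM in CL. The summed level of 4 proliferation genes was 428 to 1018 CPM in cKO IL against 38.6 to 90.9 CPM in cKO CL, and 90.4 to 571 CPM in WT IL against 27.9 to 120 CPM in WT CL. A pair of WT libraries stood apart for the metabolic genes, since WT IL A was the lowest of the WT IL libraries for 38 of the 52 genes and WT CL A the highest of the WT CL libraries for 34 of them. WT IL C was the highest WT IL library for 38 genes, so the WT IL libraries spread widely.

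To show the regulatory sequence in front of some of these genes, the 250 bases before the RefSeq start site (GRCm38.p6, 5′ to 3′ on the gene's strand) are given for Ldha, Pgk1 and Pgam1, which were higher in IL than in CL in cKO, and for Hk2, which did not pass the test. The capitals mark ACGTG or GCGTG on either strand, the core letters of hypoxia response elements. Of these, ACGTG also stands in a CACGTG E-box.
Ldha (chr7:46845554-46845803, plus strand, the first of its start sites): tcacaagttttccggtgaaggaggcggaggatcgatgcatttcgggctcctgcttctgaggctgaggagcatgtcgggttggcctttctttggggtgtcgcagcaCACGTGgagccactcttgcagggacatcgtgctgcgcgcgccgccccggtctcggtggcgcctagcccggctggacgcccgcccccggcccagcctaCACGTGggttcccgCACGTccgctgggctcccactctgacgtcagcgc
Pgk1 (chrX:106186850-106187099, plus strand): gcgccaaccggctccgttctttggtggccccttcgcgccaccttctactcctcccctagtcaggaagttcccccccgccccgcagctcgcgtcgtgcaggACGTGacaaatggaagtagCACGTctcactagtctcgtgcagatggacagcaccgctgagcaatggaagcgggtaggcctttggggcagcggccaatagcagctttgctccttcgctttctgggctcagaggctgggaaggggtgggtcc
Pgam1 (chr19:41911621-41911870, plus strand): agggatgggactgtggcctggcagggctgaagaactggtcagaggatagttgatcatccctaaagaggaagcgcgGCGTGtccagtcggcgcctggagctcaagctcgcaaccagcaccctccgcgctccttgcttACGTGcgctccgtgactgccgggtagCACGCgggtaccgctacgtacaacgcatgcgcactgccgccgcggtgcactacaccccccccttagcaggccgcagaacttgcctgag
Hk2 (chr6:82774455-82774704, minus strand): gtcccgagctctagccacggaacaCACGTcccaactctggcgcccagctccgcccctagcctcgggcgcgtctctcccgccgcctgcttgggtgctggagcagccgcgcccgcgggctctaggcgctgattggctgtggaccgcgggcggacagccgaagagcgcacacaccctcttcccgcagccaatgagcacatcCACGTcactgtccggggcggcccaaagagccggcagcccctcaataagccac
None of these stretches overlapped an annotated exon in GENCODE vM21. Over the full 300-base windows, which run 50 bases past the start, 52 of the 71 windows of the 50 matched genes (73.2%) held ACGTG or GCGTG, against 43.8% of all 32851 promoter windows. CACGTG was in 7 of the 71 (9.86%) and in 7.15% of all windows. The windows of the metabolic genes had a median GC content of 60.7%, against 52.7% over all windows, and both motifs contain CG. The letters stood in front of genes that rose and of genes that did not pass the test, with 2 copies each in Hk2 and Pgk1. They were absent from the windows of Tpi1, Dld, Cs and Idh3b, which rose in cKO. The windows of Gpi1, Eno2, Rpe, Dlat, Aco1, Dlst, Suclg2 and Sucla2, which did not pass, also lacked them.

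The first comparison asks how the stroke hemisphere differed from the opposite one in cKO cells. In cKO, 16 of the 52 genes rose in IL and none fell (edgeR's quasi-likelihood test, Benjamini-Hochberg adjusted p under 0.05 over 35674 genes). That is 30.8% of the genes, beside 2.94% of all genes tested that rose and 0.513% that fell. The 16 were Aldoa, Tpi1, Gapdh, Pgk1, Pgam1, Eno1, Pkm and Ldha of glycolysis, G6pdx, Tkt and Taldo1 of the pentose phosphate pathway, Pdha1 and Dld of pyruvate dehydrogenase, and Cs, Idh1 and Idh3b of the TCA group. For 40 of the 52 genes every cKO IL library lay above every cKO CL library, beside 18.5% of all genes tested. The median log2 fold change of the 52 genes was 1.49, beside -1.33 over all genes tested, and each of the 52 lay above that median of all genes. Among the 10437 genes with at least 10 counts in every library, 17 of the 45 metabolic genes retained rose, beside 12% of these genes, and the medians were 1.06 and -0.04.

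**Figure D1:**
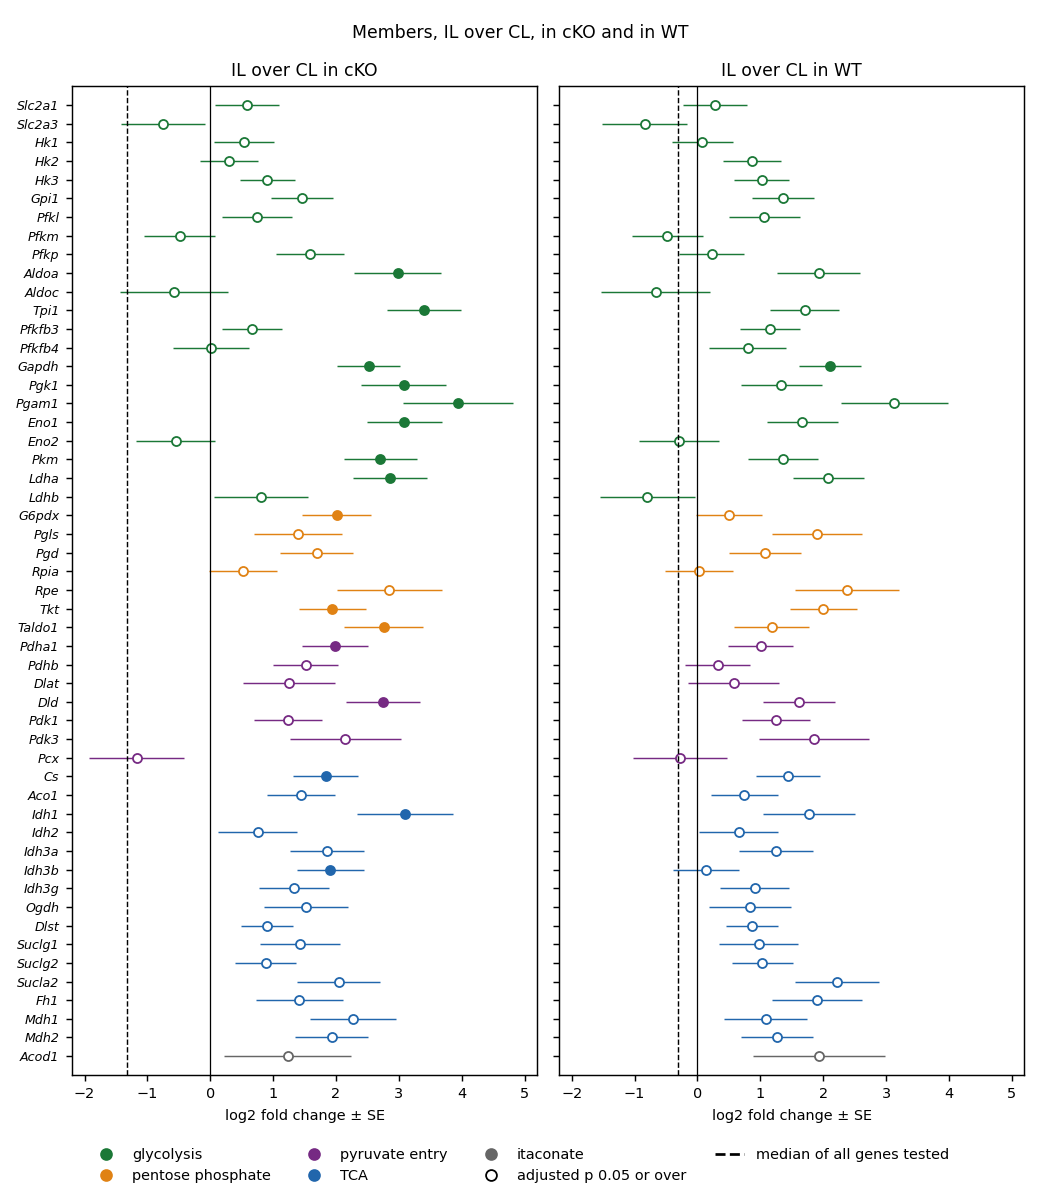
Log2 fold change ± SE of the 52 genes in IL over CL, in cKO (left) and in WT (right), by pathway, with filled points at an adjusted p under 0.05 and a dashed line at the median of all 35674 genes tested. In cKO 16 points are filled, all to the right of 0, and in WT only Gapdh is filled.

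The genes of the trunk of glycolysis, from aldolase to lactate dehydrogenase, held 8 of the 16 calls. Tpi1, triosephosphate isomerase, which interconverts the triose phosphates made by aldolase, had 269, 194 and 186 CPM in cKO IL against 17.6, 20.9 and 22.9 CPM in cKO CL, which is 3.403 ± 0.59 as log2 fold change (SE, adjusted p = 0.00912, edgeR). Pgam1, the phosphoglycerate mutase, had 117, 68.8 and 67.0 CPM in cKO IL against 5.29, 6.64 and 4.59 CPM in cKO CL, the largest change of the 52 at 3.94 ± 0.88 (adjusted p = 0.0200). In both genes every IL library lay far above every CL library. Eno1, the enolase of most tissues, had 507, 399 and 321 CPM in cKO IL against 34.1, 45.8 and 64.9 CPM in cKO CL, at 3.08 ± 0.60 (adjusted p = 0.0127). Pgk1, which makes the first ATP of glycolysis, had 104, 70.1 and 87.0 CPM in cKO IL against 8.64, 7.30 and 15.1 CPM in cKO CL, at 3.07 ± 0.68 (adjusted p = 0.0199). Their groups did not overlap either, and the libraries within a group were much closer to each other than to the other hemisphere.

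Aldoa, the aldolase of muscle and most other tissues, averaged 765 ± 77.2 CPM in cKO IL and 97.1 ± 41.3 CPM in cKO CL (SD, n = 3 each), at a log2 fold change of 2.98 ± 0.69 (adjusted p = 0.0236). Pkm, pyruvate kinase, whose splice forms are not told apart in these counts, reached 2243, 1839 and 1246 CPM in cKO IL against 175.4, 409.1 and 232.7 CPM in cKO CL, at 2.71 ± 0.58 (adjusted p = 0.0167). It had the highest CPM of the 52 genes in each cKO IL library. Ldha, the lactate dehydrogenase subunit that favours lactate formation, had 394, 252 and 253 CPM in cKO IL against 30.7, 53.6 and 39.5 CPM in cKO CL, at 2.86 ± 0.58 (adjusted p = 0.0137). Gapdh, often used as a reference gene for loading, had 635, 315 and 430 CPM in cKO IL against 68.2, 107 and 64.7 CPM in cKO CL, at 2.52 ± 0.50 (adjusted p = 0.0131), so it was not level between the hemispheres.

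At the entrance of glycolysis, none of the 5 genes of uptake and phosphorylation passed the test in cKO, and neither did the pair that sets fructose 2,6-bisphosphate, Pfkfb3 and Pfkfb4. Slc2a1, the Glut1 transporter, had 165, 234 and 126 CPM in cKO IL against 54.0, 158 and 138 CPM in cKO CL, at 0.58 ± 0.51 (adjusted p = 0.430), and the groups overlapped. Hk2, the inducible hexokinase, had 434, 367 and 418 CPM in cKO IL against 227, 427 and 341 CPM in cKO CL, at 0.29 ± 0.46 (adjusted p = 0.656). Both were well expressed in either hemisphere, and in both genes a cKO CL library lay above a cKO IL library.

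Pfkfb3, which makes the activator of phosphofructokinase, had 557, 541 and 642 CPM in cKO IL against 200, 427 and 471 CPM in cKO CL, at 0.66 ± 0.48 (adjusted p = 0.347). Hk3, the hexokinase of myeloid cells, had 156, 127 and 152 CPM in cKO IL against 59.1, 77.3 and 95.2 CPM in cKO CL, at 0.91 ± 0.44 (adjusted p = 0.206). For these genes every IL library lay above every CL library without the difference passing the test over all genes. The median log2 fold change was 0.54 for the 5 uptake and hexokinase genes and 2.89 for the 6 genes from Gapdh to Pkm. The difference between these 2 groups was not tested. With total counts as the only scaling the first median was -0.32 and the second 2.02, so the direction of the uptake genes depended on the scaling while that of lower glycolysis did not.

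In the pentose phosphate pathway, 3 of 7 genes rose in cKO and the median was 1.94. Taldo1, transaldolase of the non-oxidative branch, had 325, 186 and 202 CPM in cKO IL against 17.6, 40.1 and 47.7 CPM in cKO CL, at 2.76 ± 0.63 (adjusted p = 0.0220). Tkt, transketolase, had 326, 277 and 255 CPM in cKO IL against 40.5, 94.0 and 88.7 CPM in cKO CL, at 1.94 ± 0.53 (adjusted p = 0.0443). G6pdx, glucose 6-phosphate dehydrogenase, the NADPH-making first step, had 110, 60.4 and 69.7 CPM in cKO IL against 10.3, 29.5 and 19.8 CPM in cKO CL, at 2.01 ± 0.55 (adjusted p = 0.0432). In all 3 the groups did not overlap. Rpe, Pgd and Pgls had positive values that did not pass, and Rpia was the least moved at 0.52 ± 0.54.

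At the entry to mitochondria, Dld, the dihydrolipoyl dehydrogenase subunit shared by the pyruvate and 2-oxoglutarate dehydrogenases, had 115, 70.9 and 76.8 CPM in cKO IL against 9.31, 14.9 and 14.9 CPM in cKO CL, at 2.75 ± 0.59 (adjusted p = 0.0176). Pdha1, the catalytic subunit of pyruvate dehydrogenase, had 133, 110 and 108 CPM in cKO IL against 20.6, 32.4 and 35.9 CPM in cKO CL, at 1.98 ± 0.53 (adjusted p = 0.0413). Pdk1, a kinase that switches that enzyme off, had 84.8, 55.5 and 71.5 CPM in cKO IL against 23.4, 27.0 and 39.2 CPM in cKO CL, at 1.24 ± 0.54 (adjusted p = 0.173). Pcx is pyruvate carboxylase, which refills the cycle with oxaloacetate. It had 5.59, 3.23 and 11.8 CPM in cKO IL against 15.3, 16.8 and 14.3 CPM in cKO CL, without overlap. Pcx did not pass the test (-1.17 ± 0.76, adjusted p = 0.310, edgeR), beside a median of -1.33 over all genes tested. Voom with quality weights called it lower, where 10173 of all 35674 genes tested were called lower.

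The log2 fold changes of all 15 TCA genes were positive in cKO, with a median of 1.52, and 3 passed. Idh1, the cytosolic NADP-dependent isocitrate dehydrogenase, had 145, 104 and 108 CPM in cKO IL against 8.44, 11.4 and 21.7 CPM in cKO CL, at 3.10 ± 0.77 (adjusted p = 0.0310). Its mitochondrial counterpart Idh2 had 119, 86.8 and 91.4 CPM in cKO IL against 37.0, 71.9 and 67.2 CPM in cKO CL, at 0.76 ± 0.63 (adjusted p = 0.409). Cs, citrate synthase, which opens the cycle, had 175, 101 and 84.5 CPM in cKO IL against 27.5, 35.7 and 37.9 CPM in cKO CL, at 1.83 ± 0.51 (adjusted p = 0.0477). Idh3b, a subunit of the NAD-dependent isocitrate dehydrogenase, sat at the threshold with 1.91 ± 0.54 (adjusted p = 0.0498), and Mdh1 and Mdh2, the malate dehydrogenases, just outside it at 0.0641 and 0.0632. Acod1, which makes itaconate, stayed low, at 7.65, 11.8 and 16.8 CPM in cKO IL against 9.38, 1.26 and 4.79 CPM in cKO CL, with overlapping groups and 1.23 ± 1.01 (adjusted p = 0.401).

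Depth, receptor-gene share, monocyte markers and proliferation genes moved with the hemisphere in the same libraries. In cKO, 6 genes of border-associated macrophages summed to 285 to 473 CPM in IL against 146 to 219 CPM in CL. For 6 astrocyte genes the sums were 74.7 to 111 CPM in IL against 134 to 159 CPM in CL. The part of the marker genes was not tested. With all libraries thinned to the depth of the smallest, 5 of the 52 genes were called higher, beside 0.856% of all genes tested. The median of the 52 was then 0.96, beside -0.57 over all genes. With the receptor-gene share as a covariate, none of the 52 was called, where 0 of all 35674 genes tested were called in either direction. The median was then 0.44, beside 0.29 over all genes. Fewer cells of a type and less RNA per cell cannot be told apart in bulk counts. Leaving out any single cKO CL library (D, E or F) left 0 of the 16 calls, where 0, 0.0971 and 0.0857% of all genes tested rose. Leaving out cKO IL D, E or F left 7, 11 and 11, beside 0.766, 1.27 and 1.25% of all genes tested. Across these 6 fits the median of the 52 ran from 1.40 to 1.79. Scaling by total counts called 8 of the 52 and scaling by genes of at least 50 CPM called 6, beside 0.844 and 0.648% of all genes tested that rose. Over all genes total counts gave 301 up and 1127 down, beside 1050 up and 183 down with TMM. The 6 genes called under each of the 4 scalings tried were Aldoa, Tpi1, Gapdh, Eno1, Pkm and Ldha. With the shared column number as a replicate block, 11 of the 52 were called, beside 1.97% of all genes tested that rose.

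**Figure D2:**
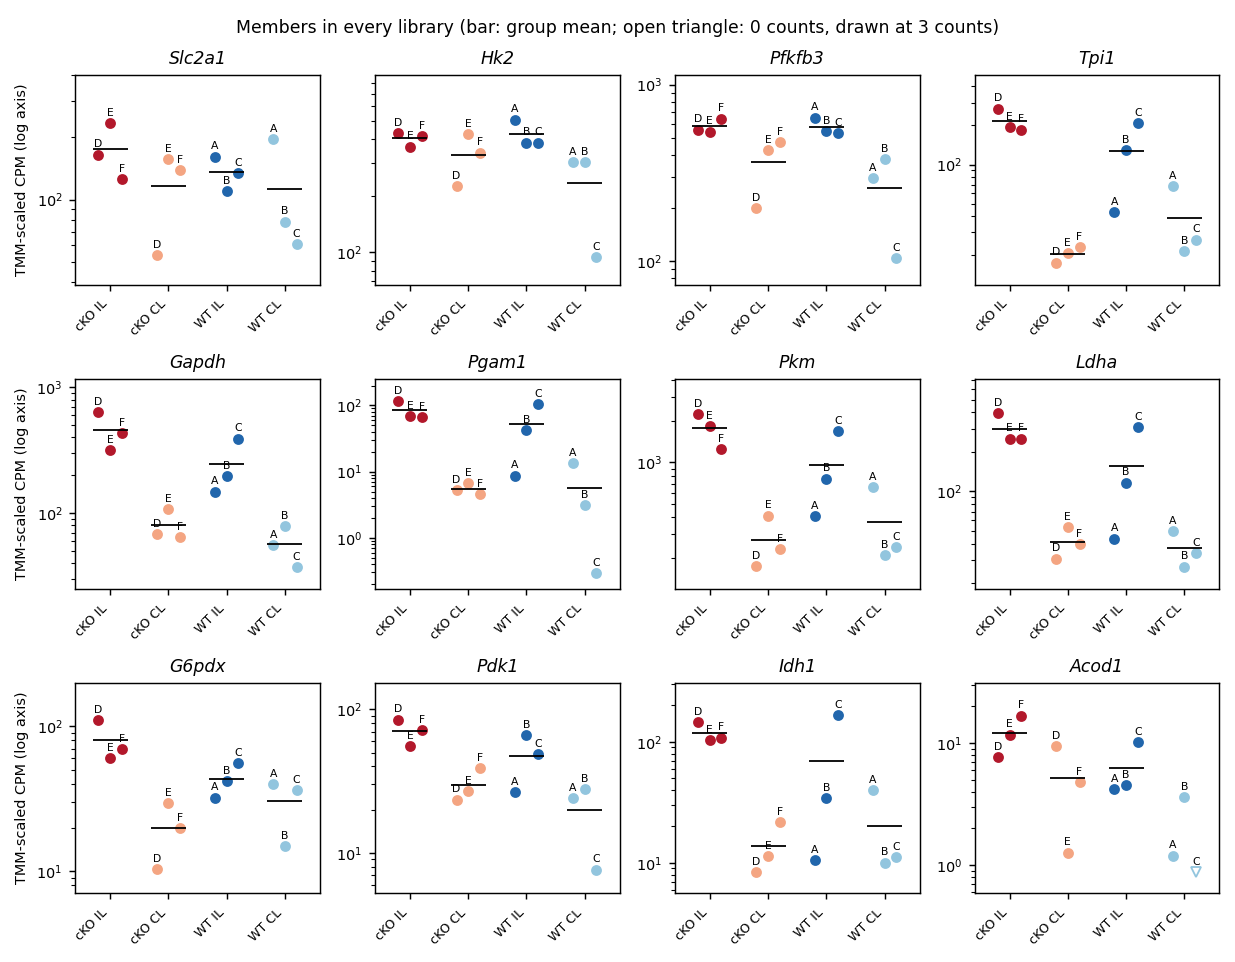
TMM-scaled CPM (log axis) of 12 of the genes in each library, with letters for libraries, bars at group means and an open triangle for 0 counts, drawn at the level of 3 counts. Tpi1, Pgam1, Pkm and Ldha are separated between cKO IL and cKO CL, while Slc2a1 and Hk2 overlap and WT IL A lies near the CL libraries for Tpi1, Pgam1, Ldha and Idh1.

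In WT, the same question gave 1 call among the 52 genes, Gapdh, and none fell, beside 0.538% of all genes tested that rose and 0.0701% that fell. Gapdh had 148, 198 and 392 CPM in WT IL against 55.4, 78.6 and 37.3 CPM in WT CL, at 2.11 ± 0.49 (adjusted p = 0.0492, edgeR), with no overlap. It was not called with the shared column number as a replicate block, where 0.0028% of all genes tested rose. The median log2 fold change of the 52 was 1.07, beside -0.31 over all genes, and 46 of the 52 were positive. For 13 of the 52 every WT IL library lay above every WT CL library, beside 10.3% of all genes tested. The calls of the IL over CL comparisons in cKO and in WT come from different libraries, fitted together.

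Most genes that rose in cKO had positive values in WT with a wide spread in IL. Ldha had 43.7, 117 and 309 CPM in WT IL A, B and C against 49.98, 26.7 and 34.0 CPM in WT CL, at 2.08 ± 0.57 (adjusted p = 0.0774). Pgam1 had 8.68, 42.1 and 105 CPM in WT IL against 13.6, 3.15 and 0.293 CPM in WT CL, the last being 1 read, at 3.13 ± 0.85 (adjusted p = 0.0768). Tpi1 had 42.9, 130 and 209 CPM in WT IL against 68.5, 21.6 and 26.4 CPM in WT CL, at 1.71 ± 0.55 (adjusted p = 0.124). In each of these WT CL A lay above WT IL A, and WT IL C was close to the cKO IL libraries.

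Tkt came nearest to the threshold after Gapdh, with 104.5, 154.6 and 269.4 CPM in WT IL against 69.4, 44.98 and 17.3 CPM in WT CL, at 1.998 ± 0.53 (adjusted p = 0.0749) and no overlap. Eno1 was at 1.67 ± 0.57 (adjusted p = 0.140), Aldoa at 1.93 ± 0.66 (adjusted p = 0.142) and Cs at 1.44 ± 0.51 (adjusted p = 0.148). Sucla2, the ADP-forming succinyl-CoA ligase subunit, was at 2.22 ± 0.67 (adjusted p = 0.104) and Rpe, the ribulose phosphate epimerase, at 2.38 ± 0.83 (adjusted p = 0.146). Neither Tkt nor any of these 5 passed.

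At the entrance of glycolysis no gene was called in WT either. Hk2 had 510, 385 and 385 CPM in WT IL against 304, 304 and 94.8 CPM in WT CL (0.86 ± 0.46, adjusted p = 0.324), and Slc2a1 had 161, 110 and 135 CPM in WT IL against 197, 78.3 and 60.7 CPM in WT CL (0.27 ± 0.51, adjusted p = 0.817). Pfkfb3 had 651, 548 and 534 CPM in WT IL against 296, 380 and 104 CPM in WT CL (1.15 ± 0.48, adjusted p = 0.213), and its groups did not overlap. G6pdx had 32.2, 41.6 and 55.5 CPM in WT IL against 40.1, 14.99 and 36.4 CPM in WT CL (0.50 ± 0.53, adjusted p = 0.649). Idh1 had 10.6, 34.4 and 165 CPM in WT IL against 39.9, 10.1 and 11.2 CPM in WT CL (1.77 ± 0.73, adjusted p = 0.208), and Pdk1 had 26.4, 66.4 and 49.1 CPM in WT IL against 24.0, 27.9 and 7.63 CPM in WT CL (1.25 ± 0.54, adjusted p = 0.229). Acod1 had 4.20, 4.50 and 10.2 CPM in WT IL against 1.19, 3.599 and 0 CPM in WT CL, where 0 counts in WT CL C allow a level of up to 0.880 CPM by counting error alone.

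The WT count depended on single libraries. Without WT CL A 12 of the 52 genes rose, beside 2.43% of all genes tested, and without WT IL A 8 rose, beside 2.46%. Without both, a choice made after the data were seen, 25 rose, beside 5.2% of all genes, with a median of 2.08. Without WT IL B, WT IL C or WT CL C none of the 52 was called, where 0.387, 0.0127 and 0.982% of all genes tested rose. Without WT CL B 2 of the 52 rose, beside 1.14%. The monocyte marker sum was 601 CPM in WT IL A against 6094 CPM in WT CL A, where Fn1 alone had 5976 CPM, and its part in the metabolic values was not tested.

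**Figure D3:**
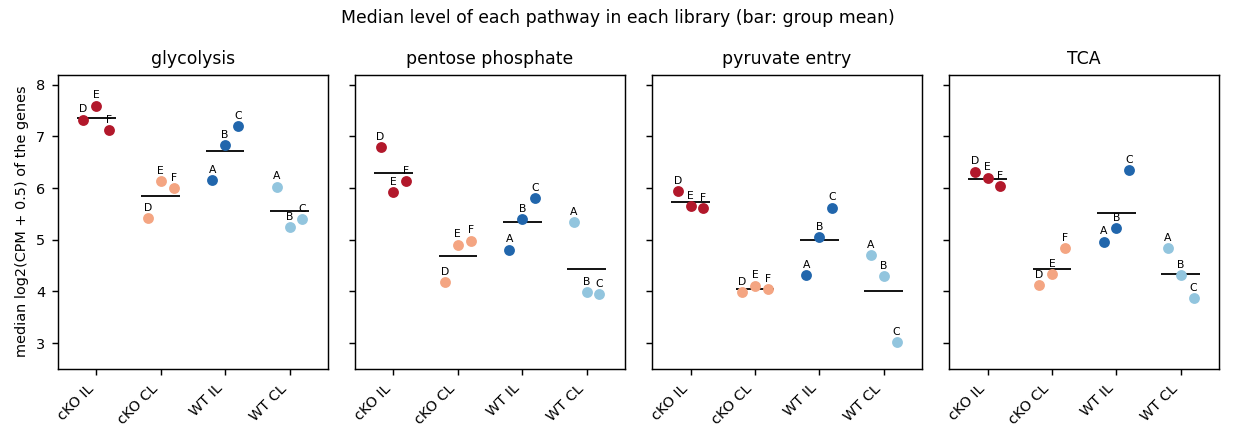
Median log2(CPM + 0.5) of the genes of glycolysis, pentose phosphate, pyruvate entry and TCA in each library, with bars at group means. The 3 cKO IL libraries lie above the 3 cKO CL libraries in each panel, while WT IL A (6.15 for glycolysis) lies close to WT CL A (6.03).

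The genotype comparison asks how cKO cells differed from WT cells after stroke. In IL, none of the 52 genes was called for cKO over WT, where 0% of all genes tested were called, and none had an unadjusted p under 0.05, beside 843 of all genes tested (DESeq2 also called none of the 52, and voom with quality weights called 27, all higher in cKO, where it called 7.23% of all genes higher). The log2 fold changes were positive for 46 of 52, with a median of 0.68 beside -0.24 over all genes, and ran from -0.63 for Pcx to 1.16 for Fh1. The median was 0.41 with total counts as the only scaling (38 positive), and 0.38 with the receptor-gene share as a covariate, beside 0.28 over all genes. Among the 10437 genes with at least 10 counts in every library it was 0.44, beside -0.0004 over these genes, with 33 of 45 positive. For 7 of the 52 every cKO IL library lay above every WT IL library, beside 4.83% of all genes tested.

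The 10 genes with the lowest p in IL were Gapdh, Idh3a, Taldo1, Eno1, Cs, Ldha, Dld, Pdha1, G6pdx and Fh1, the fumarase. Their log2 fold changes lay between 0.85 and 1.16. WT IL A was the lowest WT IL library in several of them. Gapdh had 635, 315 and 430 CPM in cKO IL against 148, 198 and 392 CPM in WT IL (0.90 ± 0.48, adjusted p = 0.997). Taldo1 had 325, 186 and 202 CPM in cKO IL against 27.6, 94.4 and 207 CPM in WT IL (1.12 ± 0.59), and Eno1 had 507, 399 and 321 CPM in cKO IL against 57.6, 196 and 346 CPM in WT IL (1.03 ± 0.56), both with overlap. G6pdx, Pdha1 and Idh3a did not overlap between the genotypes, G6pdx having 110, 60.4 and 69.7 CPM in cKO IL against 32.2, 41.6 and 55.5 CPM in WT IL (0.89 ± 0.53). Without WT IL A the median of the 52 was 0.40, and without WT IL C it was 1.08.

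Genes of the entrance had smaller genotype values in IL. Pfkfb3 was at 0.01 ± 0.47, Hk2 at -0.07 ± 0.46 and Hk3 at 0.14 ± 0.43 on the log2 scale. With 3 libraries a group, a miss of the threshold does not show that the genotypes were alike. Depth also differed by genotype (43961276 to 47256174 counts in cKO IL against 18425180 to 25166928 in WT IL). The monocyte marker sum was 7280 to 18316 CPM in cKO IL against 601 to 7812 CPM in WT IL, with overlap. With libraries thinned to the depth of the smallest, the median of the 52 was 0.32, beside -0.15 over all genes, and 36 were positive, while the part of the monocyte markers was not tested.

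In CL, none of the 52 genes was called for cKO over WT, where 0% of all genes tested were called, and 2 had an unadjusted p under 0.05, beside 1685 of all genes tested, while DESeq2 and voom with quality weights called none of the 52. The median log2 fold change was 0.05, beside 0.23 over all genes, with 27 positive and 25 negative. Fh1 had 13.8, 8.07 and 9.98 CPM in cKO CL against 4.77, 4.05 and 1.17 CPM in WT CL (1.63 ± 0.71, unadjusted p = 0.0305 in edgeR), the one gene without overlap, beside 9.27% of all genes for which every cKO CL library was the higher. Idh3b had 16.9, 19.6 and 28.1 CPM in cKO CL against 59.5, 19.5 and 65.7 CPM in WT CL (-1.16 ± 0.53, unadjusted p = 0.0384 in edgeR). The other 8 of the lowest p were Pgls, the 6-phosphogluconolactonase (1.38 ± 0.70), Tpi1 (-0.93 ± 0.54), Acod1 (1.64 ± 1.04), Sucla2 (0.97 ± 0.65), Tkt (0.75 ± 0.52), Pgk1 (-0.85 ± 0.64), Ldhb, the heart-type lactate dehydrogenase subunit (-0.98 ± 0.75), and Pfkp, the platelet phosphofructokinase (-0.63 ± 0.52). Without WT CL A the median was 0.57.

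The interaction, IL over CL in cKO minus IL over CL in WT, was called for none of the 52 genes (0% of all genes tested), and 2 had an unadjusted p under 0.05, beside 1355 of all genes tested, while DESeq2 and voom called none of the 52. So the 16 calls in cKO and the 1 in WT are not shown to differ between genotypes. The largest values were those of Idh3b (1.77 ± 0.74, unadjusted p = 0.0256 in edgeR), Pgk1 (1.74 ± 0.90), Tpi1 (1.70 ± 0.77, unadjusted p = 0.0368 in edgeR), Ldhb (1.605 ± 1.06), Taldo1 (1.58 ± 0.83) and G6pdx (1.51 ± 0.75). Eno1 (1.41 ± 0.79), Pfkp (1.36 ± 0.74), Pkm (1.34 ± 0.77) and Pdhb, the other subunit of the pyruvate dehydrogenase heterotetramer (1.19 ± 0.73), followed among the lowest p. The median of the 52 was 0.46, beside -0.48 over all genes, and without both WT A libraries it was -0.077.

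Several steps have isoenzymes from different genes, and these did not share one pattern. Per kb of annotated exon, Hk2 stood at 68.1 CPM per kb in cKO IL against 55.5 in cKO CL, and at 71.5 in WT IL against 39.3 in WT CL, above Hk3 (39.4, 21.0, 35.7 and 17.6) and Hk1 (14.5, 9.99, 11.7 and 11.1). Aldoa stood at 263, 33.3, 165 and 43.4 CPM per kb in the same groups, against 1.93, 2.89, 2.25 and 3.62 for the brain aldolase Aldoc. Eno1 stood at 76.1, 8.98, 37.2 and 11.7 CPM per kb, against 2.72, 3.99, 3.58 and 4.37 for the neuronal enolase Eno2. The brain and neuronal forms were the low ones in every group.

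In cKO, IL over CL was -0.58 ± 0.86 for Aldoc and -0.55 ± 0.63 for Eno2, beside 2.98 ± 0.69 for Aldoa and 3.08 ± 0.60 for Eno1 on the log2 scale. Slc2a3, the neuronal-type glucose transporter Glut3, had -0.76 ± 0.67, and Pfkm, the muscle phosphofructokinase, -0.49 ± 0.56, beside 0.75 ± 0.56 for Pfkl of liver and 1.59 ± 0.53 for Pfkp. In WT the values were -0.84 ± 0.67 for Slc2a3, -0.48 ± 0.57 for Pfkm, -0.67 ± 0.87 for Aldoc and -0.30 ± 0.63 for Eno2. None of these 4 passed a test. The summed level of 7 neuronal marker genes was 13.3 to 21.9 CPM in cKO IL against 61.8 to 104 CPM in cKO CL, and 17.8 to 49.6 CPM in WT IL against 56.6 to 92.7 CPM in WT CL, and its part was not tested. Differences between isoenzymes were not tested.

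**Figure D4:**
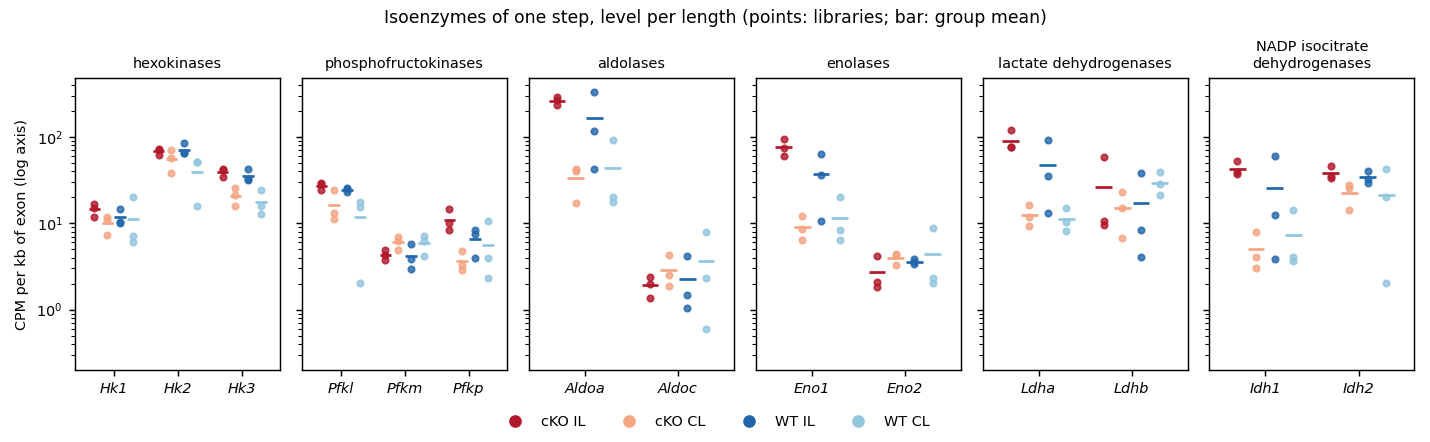
CPM per kb of exon (log axis) of isoenzymes in the 4 groups, with points for libraries and bars for group means. Aldoa, Eno1, Ldha and Idh1 are higher in cKO IL than in cKO CL in every library, while Hk2 overlaps and Aldoc and Eno2 have group means of 1.93 to 4.37 CPM per kb.

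Ordered by level per kb in cKO IL, Pkm (355 CPM per kb), Aldoa (263), Gapdh (111), Taldo1 (110) and Ldha (90.6) led, and Slc2a3 (1.92), Aldoc (1.93) and Pcx (1.45) closed the list. In WT CL the order began with Pkm (74.0), Aldoa (43.4), Hk2 (39.3), Pfkfb3 (34.4) and Slc2a1 (31.9), so genes of the entrance stood nearer the top there. Differences between neighbours in these orders were not tested. As a share of all counts, with no scaling, the 52 genes took 0.662, 0.616 and 0.580% in cKO IL against 0.298, 0.372 and 0.382% in cKO CL, and 0.374, 0.508 and 0.628% in WT IL against 0.439, 0.308 and 0.272% in WT CL. The cKO hemispheres did not overlap in this share, and the WT ones did.

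The balance between glycolysis and the TCA cycle did not separate the hemispheres. The median log2 level of the 22 glycolytic genes minus that of the 15 TCA genes was 1.01, 1.40 and 1.09 in cKO IL against 1.31, 1.81 and 1.16 in cKO CL, and 1.19, 1.61 and 0.85 in WT IL against 1.19, 0.92 and 1.54 in WT CL. The groups overlapped in both genotypes. Of 50 further genes of these routes, taken from a fixed list, 3 rose and none fell for IL over CL in cKO, beside 2.94% of all genes tested that rose, with a median of 0.55, and none was called in WT or between genotypes. The 3 were Got1 and Got2, the aspartate aminotransferases of the malate-aspartate shuttle, and Glud1, glutamate dehydrogenase. Got1 had 244, 282 and 183 CPM in cKO IL against 40.1, 54.6 and 48.8 CPM in cKO CL (2.30 ± 0.53, adjusted p = 0.0235, edgeR), and 85.0, 175 and 236 CPM in WT IL against 46.8, 49.2 and 12.6 CPM in WT CL (2.19 ± 0.53, adjusted p = 0.0546). Got2 was at 2.09 ± 0.54 and Glud1 at 2.02 ± 0.53 in cKO.

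**Figure D5:**
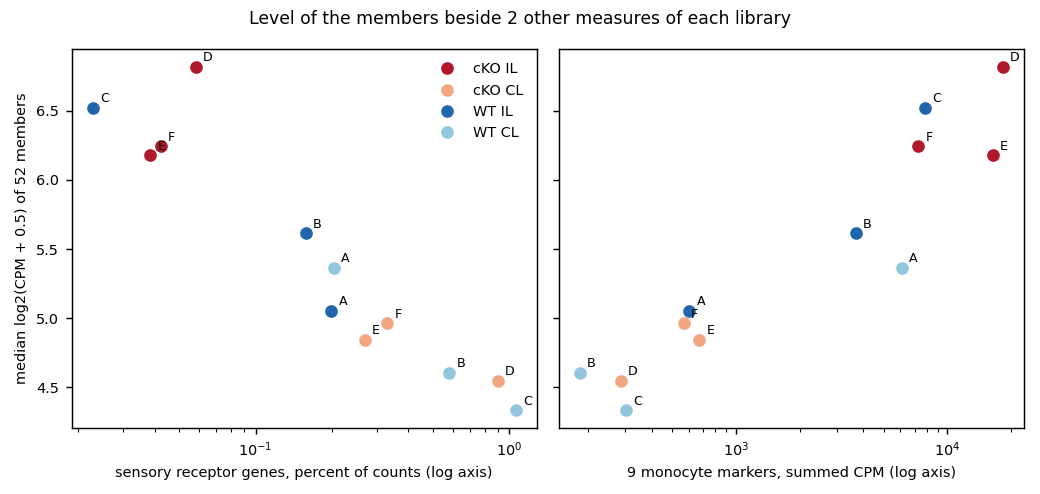
Median log2(CPM + 0.5) of the 52 genes in each library against the share of counts in sensory receptor genes (left) and the summed CPM of 9 monocyte markers (right), both on log axes. The libraries with 0.058% or less of receptor counts, the 3 of cKO IL and WT IL C, have the highest medians, and WT CL A combines 6094 CPM of monocyte markers with a median of 5.36.

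Across the 12 libraries the metabolic genes ran with these library measures. The median log2 level of the 52 was 6.18 to 6.82 in cKO IL and 6.52 in WT IL C, where receptor genes took 0.0228 to 0.058% of counts, and 4.33 to 5.62 in the other 8 libraries, where they took 0.158 to 1.06%. The points share library depth and hemisphere, so this is a description only. Some counts are also uncertain by sequence, since rows named as copies or retrogenes held 13.9% as many reads as Eno1 (Eno1b), 3.54% as many as G6pdx (G6pd2), 2.70% as many as Pgam1 and 0.0772 to 1.01% as many as Gapdh, Ldha, Aldoa and Pgk1. In single libraries this reached 63.0% for G6pdx and 47.6% for Pgam1, so their lowest values are the least certain. It reached 22.5% for Pgk1, 22.3% for Aldoa, 21.4% for Eno1, 12.9% for Ldha and 1.36% for Gapdh. G6pdx shared 418 exon bases with Ikbkg and Pdha1 603 with Map3k15 on the opposite strand, while Pgls shared 776 with Fam129c, Pkm 767 with the gene model Gm49759 and Pfkm 341 with Gm26513 on the same strand. A second row named Aldoa held at most 45 reads in a library and was not used.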

How the data were processed

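The authors sequenced stranded RNA libraries, removed adapters, low-quality, ribosomal and mitochondrial reads, used STAR 2.5.3a within Partek 8.0 to align to the mm10 genome, and deposited raw counts, whole numbers per gene that are not normalized. The counting tool and annotation are not given in the sources used here. Whether counting used strand is not given in the sources used here. From these counts, genes were kept with edgeR's filterByExpr (35674 of 53801), scaled with TMM and fitted in edgeR 4.0.16 (R 4.3.3) by quasi-likelihood over all 12 libraries with a term per group. The Benjamini-Hochberg adjustment ran over all tested genes, with calls under 0.05, and SE is the log2 fold change over the square root of F. Logged library levels used a pseudocount of 0.5 CPM. The scripts were tested on simulated data.

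The metabolic genes and all other lists were chosen with earlier results of these data known. Genes named in full were those with the lowest p of each comparison (10, or 12 for IL over CL in cKO), besides uptake, regulatory and isoenzyme genes. Alternatives covered DESeq2 1.42.0, voom (limma 3.58.1), other scalings and filters, the compared libraries only, thinning, a sensory-receptor covariate and leaving libraries out. The block on column number, bias-adjusted deviances and leaving out pairs of WT libraries were added after the data were seen. The upper limit given for Acod1 in WT CL C covers counting error only. The SE values come from the quasi-likelihood fit and include the spread between libraries. Protein sequences of the isoenzymes were not used here. The gene targeted in cKO mice is not reported here.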

Additional observations from a re-analysis of the deposited data

How the results depend on the processing

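For IL over CL in cKO, 16 genes were called (2.94%) and the median was 1.49. Percentages in brackets in this section are the share of all genes tested that rose under the same setting. DESeq2 called 21 (3.56%), RLE scaling 11 (1.76%) and total counts 8 (0.844%). Voom called 39, 38 higher (14.8%) and Pcx lower, where 10173 of 35674 genes fell. Scaling on genes of at least 50 CPM called 6 (0.648%), no filter 26 (4.76%) and at least 10 counts 17 (12%). Only the compared libraries called 41 (19.1%), thinning 5 (0.856%), the covariate 0 (0%) and bias-adjusted edgeR 33 (10.5%). Leaving out WT IL A and WT CL C gave 37 (12.3%) and leaving out both WT A libraries 30 (7.93%). Leaving out single libraries gave 0 to 11 calls (0 to 1.27%) and medians of 1.40 to 1.79. The median was 0.63 with total counts, 0.64 on genes of at least 50 CPM, 1.90 with no filter, 1.06 with at least 10 counts, 1.82 with the compared libraries, 0.44 with the covariate, 0.96 after thinning and 1.90 without either pair of WT libraries.

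For IL over CL in WT, 1 gene was called (0.538%). DESeq2 called 5 (2.33%), no filter 10 (2.33%), at least 10 counts 3 (3.89%) and bias-adjusted edgeR 5 (2.13%). None of the 52 was called with voom (0%), the compared libraries (0%) or the covariate (0%). RLE (0.185%), total counts (0.0673%), the 50 CPM scaling (0.0897%) and thinning (0.0861%) also called none. Leaving out WT IL A and WT CL C gave 17 (4.69%) and leaving out both WT A libraries 25 (5.2%). Leaving out single libraries gave 0 to 12 calls (0.0127 to 2.46%) and medians of 0.74 to 1.87. The median was 0.30 with the 50 CPM scaling, 0.052 with the covariate and 2.08 without both WT A libraries. For cKO over WT in IL, voom called 27 (7.23%). The median of 0.68 was 0.41 with total counts, 0.32 after thinning and 0.38 with the covariate. The CL median was 0.57 without both WT A libraries and -0.093 to 0.57 leaving out single libraries, and the interaction median was -0.077 without both. Pfkp in CL turned to 0.071 with voom, to 0.35 without both WT A libraries, and ran from -0.99 to 0.35 leaving out single libraries. Aldoa in WT turned to -0.14 with the covariate. The cause was not tested.

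With column number as a replicate block, 11 genes were called in cKO (1.97%), without G6pdx, Tkt, Pdha1, Cs and Idh3b, and 0 in WT (0.0028%), without Gapdh. The medians were 1.55 and 1.21, and the interaction median was 0.39. The block could not be fitted for cKO over WT. Deviations of same-numbered IL and CL libraries correlated at -0.13 to 0.209, and 4 of 6 IL libraries correlated best with their own number. With so few libraries a group, these values cannot decide whether same-numbered libraries are pairs, and the main fit used no block. WT CL C, with 2091512 counts, limits the low levels most.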
